A study of Mus musculus with 20 samples.

Results

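In cultured mouse nephron progenitor cells (NPCs), 31 genes changed with the dose of CHIR to a similar level whether or not β-catenin had been targeted, 10 of them higher and 21 lower in high CHIR. They were chosen from the deposited normalized counts of 31130 genes by 3 conditions. The mean over the 20 libraries was at least 50, which 12488 genes met. The ratio of high over low CHIR within a culture date was at least 1.4 in all 3 CTRL and all 3 β-catenin KO pairs, or at most 0.71 in all 6. The β-catenin KO mean lay within 1.5-fold of the CTRL mean in both doses. The ratio limits were met by 1653 genes in the 3 CTRL pairs, by 414 in the 3 β-catenin KO pairs and by 245 in all 6 pairs, and 212 of these 245 were then lost on the group means. Another 2 genes, Slc16a1 and Lama4, were left out because solute carrier and laminin genes were not considered, which could be applied to genes with a symbol alone. Of the 31 genes, 21 have a symbol and 10 are known by their Ensembl identifier alone, 3 of them higher and 7 lower. Since the CTRL and β-catenin KO libraries chose the genes, their values in those libraries are a description. A limma fit of all 20 libraries (calls as defined below) called 17 of the 31 for dose in CTRL, where 10.7% of all genes were called. In β-catenin KO it called 0 of the 31, against 0.018% of all genes.

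Wnt ligands act on cells largely through β-catenin. Without Wnt, the kinase GSK3 phosphorylates β-catenin and marks it for destruction, and with Wnt the stabilized protein enters the nucleus and works with TCF/LEF factors on target genes such as Lef1 and Axin2. β-catenin also links cadherins to α-catenin at cell contacts. CHIR (CHIR99021) inhibits GSK3 and so stands in for Wnt, but GSK3 has many other substrates, among them glycogen synthase and several transcription factors, Jun included. In the embryonic kidney, Six2-expressing NPCs self-renew under weak Wnt input and turn into Wnt4-expressing renal vesicle precursors under strong input.

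All libraries came from primary NPCs of embryonic mice that carry Cas9 and eGFP. The cells were lipofected with sgRNAs and an mCherry mRNA, cultured in low (1.25 µM) or high (5 µM) CHIR and sorted for mCherry. CTRL cells received sgRNA against GFP, β-catenin KO cells against Ctnnb1, α-catenin KO cells against Ctnna1, and QCKO (quadruple cadherin KO) cells against Cdh2, Cdh3, Cdh4 and Cdh11 together. For CTRL and β-catenin KO each dose had 3 libraries, and for each of the 2 adhesion knockouts 2. Edited cells are a mixed population in which each allele may carry a different lesion or none, and the sort selects for transfection, not for loss of the protein. A replicate number stands for 1 of 3 culture dates, and the groups share these dates (α-catenin KO had dates 1 and 3, QCKO had dates 2 and 3). The labels do not say whether libraries of a date came from separate animals, so p-values measure the spread between these libraries.

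The sgRNA targeting sequences are shown because they define the knockouts, in lower case from 5′ to 3′, as the study's oligonucleotide table lists them. Those against Ctnnb1 were used to define the 31 genes. The table names 4 Ctnnb1 guides with 3 different sequences, since 2 of the names, given for different exons, carry the same letters. The others gave the libraries in which the 31 genes were tested.
Ctnnb1 sgRNA1, exon 2: atgagcagcgtcaaactgcg
Ctnnb1 sgRNA3, exon 3: agccaagcgctggacattag
Ctnnb1 sgRNA5 and sgRNA6: gagattatgcagtgtcgtga
Ctnna1: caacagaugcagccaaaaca
Cdh2: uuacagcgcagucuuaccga
Cdh3: ccgaugaagcccgcucggua
Cdh4: ccauccccaggcccaccgug
Cdh11: caccagcacagggucaggcc

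The libraries held 18124772 to 28472412 recovered reads. One library stood apart in its normalized total, CTRL high CHIR of date 2 with 28329411 against 20081901 to 23674964 in the other 19. Ctnna1 mRNA was lower in the 4 α-catenin KO libraries (3564 to 3790) than in any other library, and Cdh11 was lower in QCKO than in every other library of the same dose (1818 to 2519 in low and 589 to 1005 in high CHIR). Cdh2, Cdh3 and Cdh4 in QCKO overlapped the other libraries at both doses. No row could be matched to the symbol Ctnnb1, so its mRNA was not checked. NPC markers were present (7 of 8 could be matched by symbol). No stroma or leukocyte marker of the lists could be matched, so their levels were not checked. Of 8 endothelium markers only Tek could be matched. Tek was at 0.867 to 7.64 in low and 92.7 to 383 in high CHIR in the adhesion knockouts, with log2 fold changes of 5.70 there, 5.88 in CTRL and 2.52 in β-catenin KO. Of 13 ureteric epithelium markers 6 could be matched. They summed to 429 to 1211 in low and 1289 to 2322 in high CHIR in the α-catenin KO and QCKO libraries. In the CTRL and β-catenin KO libraries they summed to 320 to 1457 in low and 593 to 1156 in high CHIR. None was at 0 in every library, and the part of these markers in the results was not tested.

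The β-catenin KO dates differed in the canonical targets. Lef1, a TCF/LEF factor that is itself a Wnt target, had normalized counts of 62.5, 72.6 and 66.7 in CTRL low CHIR and 1118, 948 and 1465 in CTRL high CHIR. In β-catenin KO the low CHIR libraries held 62.3, 659.7 and 532 at dates 1, 2 and 3, and the high CHIR libraries 93.6, 677 and 1020. Axin2, a scaffold of the destruction complex and a feedback target, gave 14.0, 559.7 and 384 in β-catenin KO low CHIR, 18.5, 743 and 687 in β-catenin KO high CHIR and 39.3, 71.5 and 61.4 in CTRL low CHIR. Thus both targets were near or below the CTRL low CHIR level in the β-catenin KO pair of date 1, and were above it in both doses on dates 2 and 3. Wnt4, which marks induced NPCs, still rose from 30.1 to 252 in the pair of date 1, against 41.1 to 5286 in CTRL. All 31 genes passed the ratio limit at every date by their choice. With the β-catenin KO pair of date 1 as the sole knockout pair, an alternative added after seeing the data, the same conditions gave 105 genes, 13 of them among the 31 (Jun, Lyrm9, Pip4k2a, A930007A09Rik, Amigo1, Fahd1, Hoxa10, Hoxc8, Meg3, Meis1, Stxbp6, Tril and 1 gene without a symbol). With the pairs of dates 2 and 3 alone they gave 76 genes, 22 of them among the 31. In both alternatives the group mean limit set the β-catenin KO dates kept against the CTRL mean of all 3 dates. A gene could therefore be lost through a difference between dates. H19 in low CHIR had 4218 in β-catenin KO of date 1, against 3596 in CTRL of date 1 and a CTRL mean of 7630.

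Within a date, the 10 genes higher in high CHIR had a median ratio of 2.91, 1.76 and 2.32 in CTRL and of 2.07, 1.76 and 2.06 in β-catenin KO at dates 1, 2 and 3. For the 21 lower genes the median ratio was 0.470, 0.392 and 0.467 in CTRL and 0.481, 0.559 and 0.557 in β-catenin KO. Taken over dates, the mean log2 ratio was smaller in β-catenin KO than in CTRL for 24 of the 31 genes. The median size of the mean log2 ratio was 1.29 in CTRL and 1.02 in β-catenin KO. Among 632 genes that met the ratio limits in the CTRL pairs but had a mean β-catenin KO ratio between 0.83 and 1.2 (211 higher and 421 lower, the CTRL responders without a β-catenin KO response), the median sizes were 1.09 and 0.131 on a log2 scale with 1 added to each count. In low CHIR the β-catenin KO mean was 0.673 to 1.37 times the CTRL mean over the 31 genes (median 0.854), and in high CHIR 0.669 to 1.45 times (median 1.00).

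**Figure D1:**
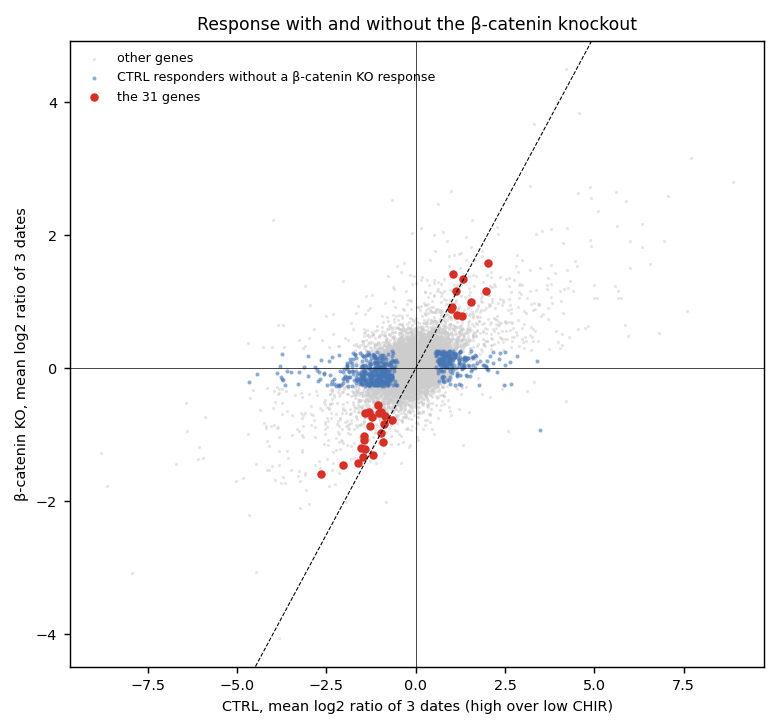
Mean log2 ratio of high over low CHIR over the 3 culture dates in CTRL (horizontal axis) and β-catenin KO (vertical axis), each point 1 of the 12488 genes that reached a mean of 50, with 1 added to each count. The 31 genes (red) lie near the dashed line of equal response, where their choice put them, and the 632 CTRL responders without a β-catenin KO response (blue) lie near 0 on the vertical axis.

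**Figure D2:**
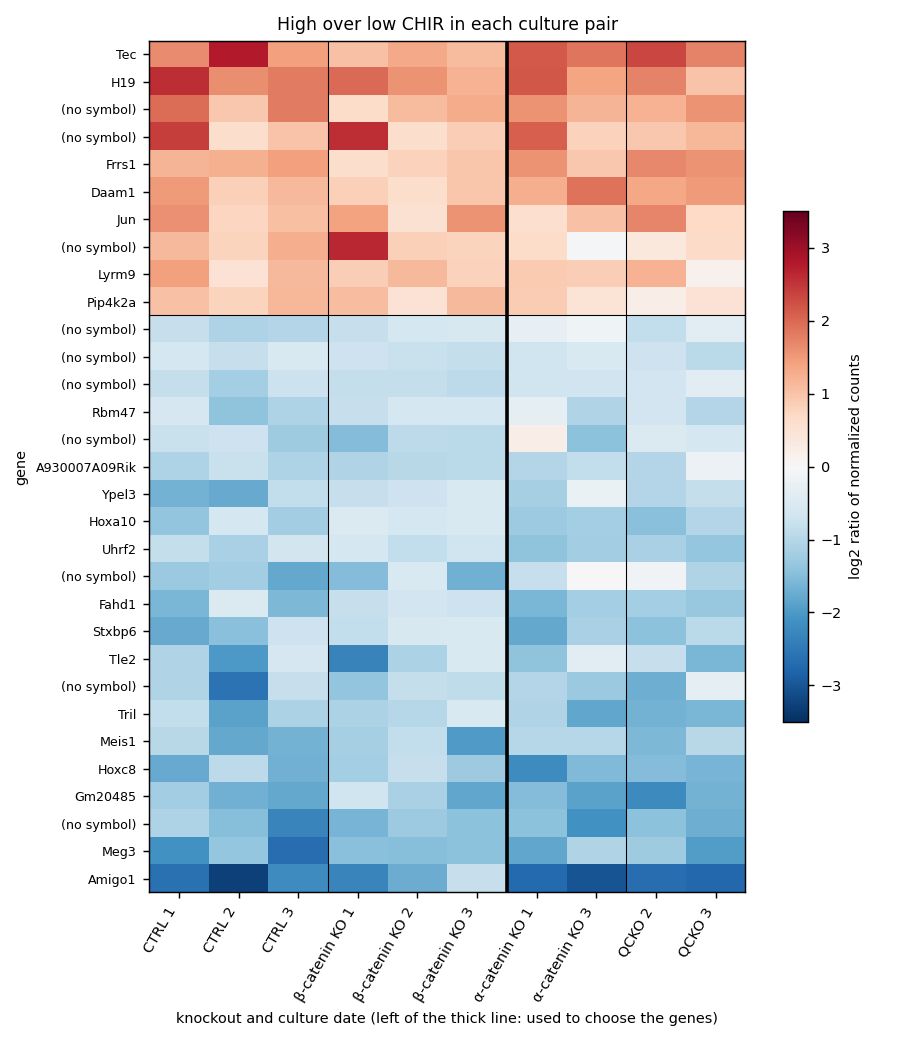
Log2 ratio of high over low CHIR (colour) for each of the 31 genes (rows) in each pair of libraries from 1 knockout and culture date (columns). The 6 columns left of the thick line chose the genes, and in the 4 columns to the right 122 of 124 ratios had the same direction.

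The ratio and group mean limits did not use the α-catenin KO and QCKO libraries. These entered the choice only through the mean over all 20 libraries, and all 31 genes also had a mean of at least 50 over the 12 CTRL and β-catenin KO libraries. In these cells the adhesion complex was targeted and β-catenin was not, and they shared culture dates with the libraries that chose the genes. They ask whether the CHIR response recurred in other libraries and do not bear on its dependence on β-catenin. Over their 4 pairs, 122 of the 124 ratios of the 31 genes had the same direction as in CTRL and β-catenin KO. In all 4 pairs 29 genes kept it. By the limma fit below, all 31 genes and 626 of the 632 CTRL responders without a β-catenin KO response kept their direction. The agreement is thus not particular to the 31 genes. The ratio limits were passed in all 4 pairs by 7 of the 10 higher genes, against 6.24% of all genes with a mean of at least 50, and by 12 of the 21 lower genes, against 6.3%. The low and high CHIR libraries did not overlap for 21 of the 31 genes, against 30.1% of those genes.

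High and low CHIR were compared with limma on log2(normalized count + 1) in the 8 α-catenin KO and QCKO libraries, over 16411 genes. Calls required a Benjamini-Hochberg adjusted p under 0.05 and a log2 fold change beyond 0.5 either way. Of all genes 15.7% were called. Of the 31 genes 20 were called, each in the direction of its choice, namely 6 of the 10 higher genes (8.01% of all genes were called higher) and 14 of the 21 lower genes (7.73% were called lower). Genes with a symbol, which the authors' comparison tables list for a difference, made up 17 of these calls (of 21). Genes without a symbol made up 3 (of 10). The shares called among all genes with and without a symbol were not counted, so 15.7% is no like measure for these counts. The CTRL responders without a β-catenin KO response were called at 63.8% (403 of 632), with a median log2 fold change in their own direction of 0.79, against 1.24 for the 31 genes. The median absolute log2 fold change of all genes with a mean of at least 50 was 0.25.

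Each knockout taken alone gave 11 calls in α-catenin KO (3 higher and 8 lower), where 7.37% of all genes were called (4.09% higher and 3.28% lower), and 13 in QCKO (4 higher and 9 lower), where 7.87% were (4.09% higher and 3.78% lower). With the culture date as a block these became 20 in α-catenin KO, against 16.2% of all genes, and 23 in QCKO, against 16.4%. The QCKO count fell to 7 without the low CHIR library of either date, to 5 without the high CHIR library of date 2 and to 8 without that of date 3, while 3.37% to 3.46% of all genes were called. These fits leave 1 library in that dose, which is assumed to vary like the other groups. No difference in response between α-catenin KO and QCKO was called for the 31 genes in limma (0 also at an unadjusted p under 0.05), edgeR or DESeq2. In limma 0% of all 16411 genes were called as well, so the count of 0 says nothing particular of the 31 genes. They had differences in log2 fold change between -0.40 for Jun and 0.42 for H19. For H19 the 95% confidence interval of that difference ran from -0.49 to 1.33.

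**Figure D3:**
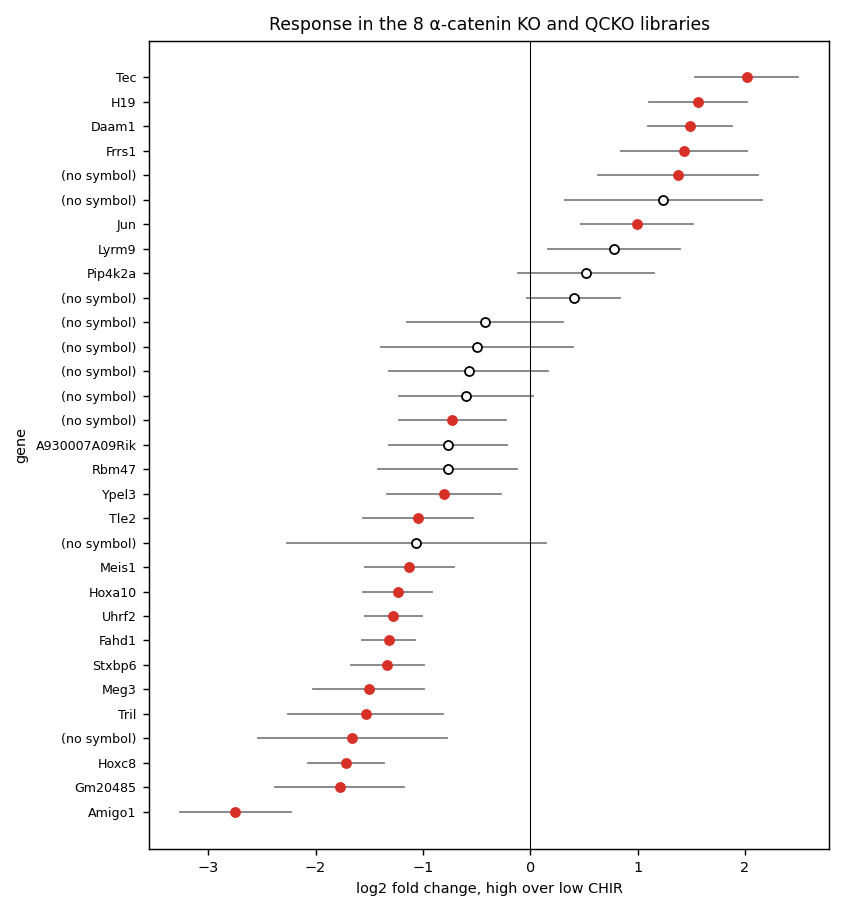
Log2 fold change of high over low CHIR (points) with its 95% confidence interval (lines) for each of the 31 genes in the 8 α-catenin KO and QCKO libraries, from limma. Filled points are the 20 called genes, and all 31 estimates lie on the side of 0 on which the gene was chosen, with Amigo1 the lowest at -2.75 and Tec the highest at 2.01.

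The 31 genes held an imprinted long non-coding RNA in each direction. H19 (chr7:142575530-142578146, GRCm38.p6), the maternally expressed RNA of the Igf2 locus and host of a miRNA, was the most abundant of the 31 genes. Its normalized counts at dates 1, 2 and 3 were 3596, 9191 and 10102 in CTRL low CHIR and 21578, 28173 and 35731 in CTRL high CHIR. They were 4218, 6960 and 10899 in β-catenin KO low CHIR and 16512, 20759 and 25356 in β-catenin KO high CHIR. Every high CHIR library was above every low CHIR library, and within each group of 3 date 1 was the lowest. The α-catenin KO libraries held 5520 and 10563 in low and 24924 and 27496 in high CHIR, and the QCKO libraries 8240 and 10988 in low and 27288 and 21742 in high CHIR. There H19 rose 2.87-fold (log2 fold change 1.57 ± 0.20, SE, adjusted p = 9.40e-04, limma).

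Meg3 (chr12:109540996-109571729), the maternally expressed RNA of the Dlk1-Dio3 domain, went the other way. Low CHIR gave 627, 207 and 377 in CTRL and 337, 278 and 204 in β-catenin KO, and high CHIR gave 145, 81.2 and 59.6 in CTRL and 122, 98.6 and 75.5 in β-catenin KO. The α-catenin KO libraries fell from 594 and 578 to 169 and 280.4 and the QCKO libraries from 328 and 604 to 139 and 157, with no overlap (log2 fold change -1.51 ± 0.23, SE, adjusted p = 0.00229, limma). Gm20485 (chr5:136863635-136870374), a non-coding RNA within the span of Col26a1, had a mean of 82.2 ± 7.1 in low and 23.9 ± 6.5 in high CHIR over these libraries (SD, n = 4), a log2 fold change of -1.78 (adjusted p = 0.00217, limma). Reads of this RNA and of Col26a1 cannot be told apart without strand, and how strand was counted is not given in the sources used here. Other imprinted genes, chosen here after their values were seen, did not share one pattern. Rian, which lies in the Meg3 domain, had log2 fold changes of -1.43 in CTRL, -0.74 in β-catenin KO and -1.15 in the adhesion knockouts, while Peg3 had -3.84, -0.32 and -3.45 in the same order.

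The lower genes with a symbol held 3 homeobox genes, and the 7 without one could not be assigned to a family. Hoxa10 (chr6:52231197-52240854) and Hoxc8 (chr15:102990539-102994275) are patterning factors, and Meis1 (chr11:18880428-19019651) is a TALE homeodomain protein that binds DNA with Hox proteins. Meis1 stood at 2143, 2961 and 2345 in CTRL low CHIR and 1090, 853 and 749.9 in CTRL high CHIR. In β-catenin KO it stood at 1728, 1671 and 2121 in low and 768, 921 and 537 in high CHIR. The doses did not overlap in either group, and the mean log2 ratios were -1.47 in CTRL and -1.34 in β-catenin KO. In the adhesion knockouts low CHIR gave 2165 and 1887 in α-catenin KO and 3220 and 1740 in QCKO, and high CHIR 1094 and 949 in α-catenin KO and 1091 and 890.3 in QCKO. Meis1 fell by 1.13 ± 0.18 (SE) on the log2 scale there (adjusted p = 0.00342, limma).

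Hoxc8 counts were 361, 305 and 462 in CTRL and 276, 295 and 388 in β-catenin KO low CHIR, against 107, 161 and 145 in CTRL and 121, 168 and 161 in β-catenin KO in high CHIR. The doses did not overlap in either group. In α-catenin KO they went from 442 and 392 to 95.3 and 135 and in QCKO from 429 and 459.9 to 149 and 149.6 (log2 fold change -1.72 ± 0.16, SE, adjusted p = 1.45e-04, limma). Hoxa10, the most abundant of the lower genes, was at 11451, 6490 and 8945 in CTRL low CHIR and 4363, 4277 and 3882 in CTRL high CHIR. Its β-catenin KO values of 8506, 6884 and 7461 in low and 5962, 4470 and 5195 in high CHIR lay closer together, and the mean log2 ratio was -0.55 there against -1.07 in CTRL. In the adhesion knockouts Hoxa10 fell by 1.24 ± 0.14 (SE) on the log2 scale (adjusted p = 4.61e-04, limma).

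The relatives of these genes were looked at after their values were seen. A symbol means that the authors list the gene for a difference, so other Hox genes could not be looked up. Apart from Hoxc8 itself, 5 Hoxc genes with a symbol were tested. Their log2 fold changes were below 0 in CTRL (-2.43 to -0.75), in β-catenin KO (-0.91 to -0.47) and in the adhesion knockouts (-3.41 to -0.94). The 3 Hoxb genes with a symbol had values above 0 in each. They ran from 0.16 to 0.52 in β-catenin KO and from 1.16 to 1.33 in CTRL. Meis2 had -1.60 in CTRL, -0.41 in β-catenin KO and -1.41 in the adhesion knockouts. Meis3 had -1.18 in CTRL, -0.0022 in β-catenin KO and -1.09 in the adhesion knockouts, and Pbx3 had 0.95, 0.066 and 0.38 in the same order. Hoxa3, the other tested Hoxa gene with a symbol, had -0.63, -0.88 and -0.07. Whether the β-catenin KO responses of Meis1 and Meis2 differ was not tested. Reads shared between Hox paralogs could not be separated here.

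Jun (chr4:95049036-95052222), the AP-1 subunit that GSK3 can phosphorylate, was the only one of the 21 genes with a symbol on any of the pathway lists. It was among the less abundant, with 38.4, 69.3 and 77.3 in CTRL low CHIR and 117, 116 and 161 in CTRL high CHIR. In β-catenin KO the values were 41.9, 118 and 84.9 in low and 111, 172 and 253 in high CHIR, so that the doses overlapped between dates although each date showed a rise. The α-catenin KO libraries gave 58.5 and 58.6 in low and 87.6 and 120.0 in high CHIR, and QCKO 49.4 and 70.4 in low and 162 and 115 in high CHIR. Jun rose by a log2 fold change of 1.00 ± 0.23 (SE, adjusted p = 0.017, limma). The call was lost without either QCKO library of date 2 and in the fit of all 20 libraries, where the adjusted p reached 0.0745 at most. Tle2 (chr10:81574739-81592581), a Groucho co-repressor that TCF/LEF factors recruit, was lower in high CHIR in every pair. It fell by 1.05 ± 0.23 (SE) on the log2 scale in the adhesion knockouts (adjusted p = 0.013, limma), a call lost without either QCKO library of date 3 (adjusted p up to 0.0597). Tle3 had log2 fold changes of -0.55 in CTRL, -0.10 in β-catenin KO and -0.19 in the adhesion knockouts.

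**Figure D4:**
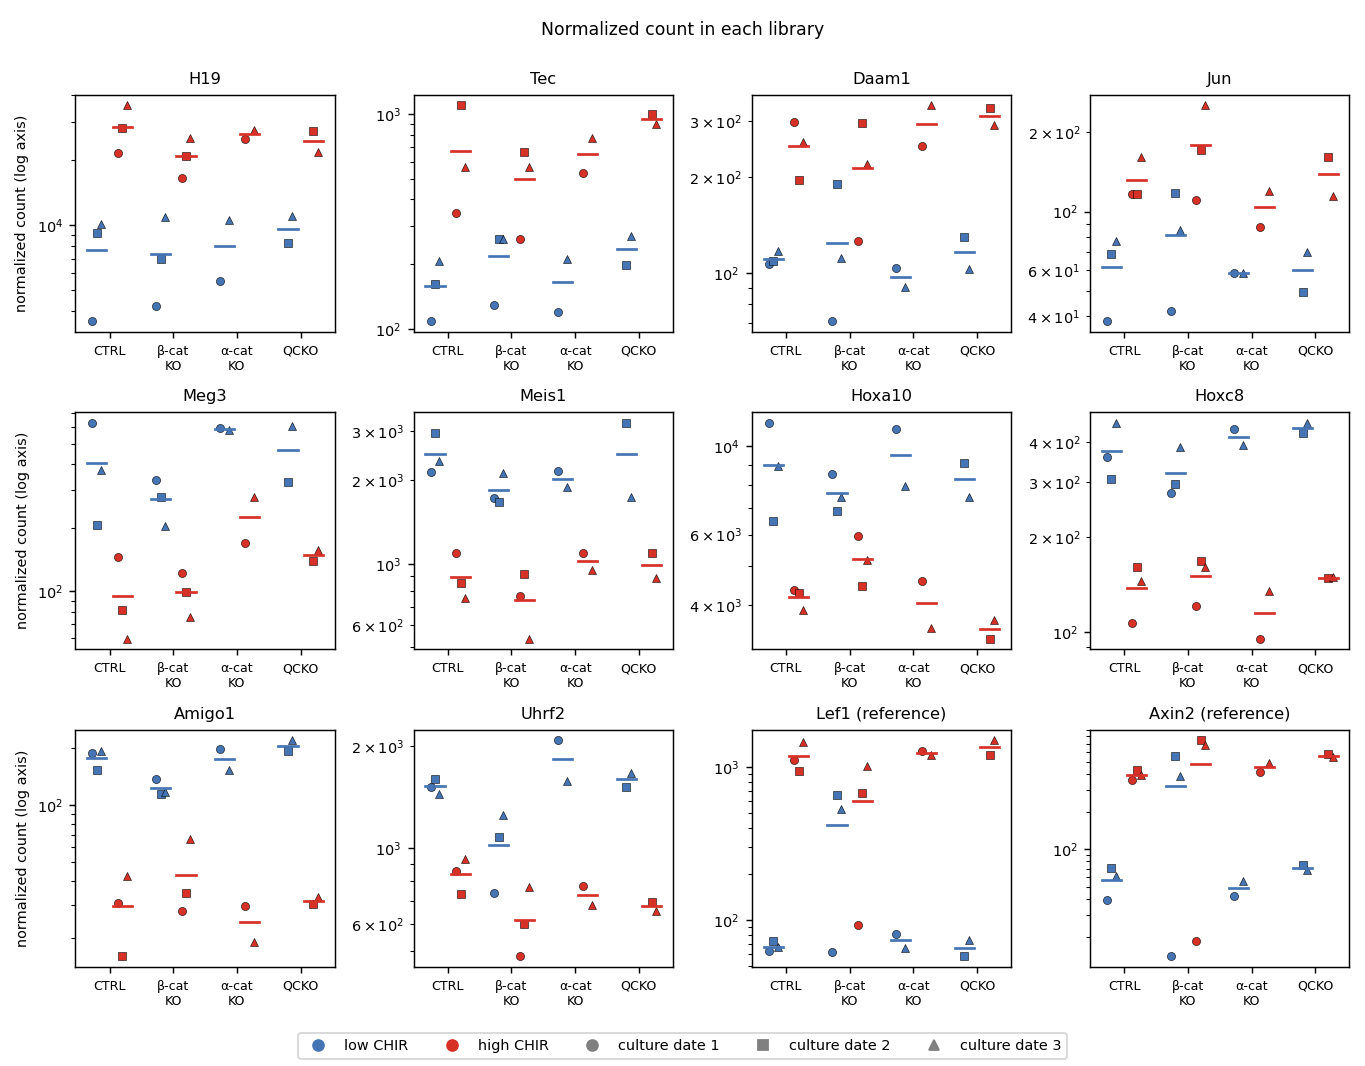
Normalized count (log axis) of 10 of the 31 genes and of the canonical targets Lef1 and Axin2 in each library, by knockout (horizontal axis), CHIR dose (colour) and culture date (symbol), with the group mean as a bar. H19, Tec, Daam1 and Jun lie higher and Meg3, Meis1, Hoxa10, Hoxc8, Amigo1 and Uhrf2 lower in high CHIR in each pair, while Lef1 and Axin2 in β-catenin KO are low at date 1 and raised in both doses at dates 2 and 3.

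Among genes of signalling and the cytoskeleton, Tec (chr5:72755718-72868654), a non-receptor tyrosine kinase, rose the most in the adhesion knockouts. Its counts were 109, 161 and 207 in CTRL low CHIR and 346, 1095 and 566 in CTRL high CHIR. For β-catenin KO they were 129, 263 and 262 in low and 262, 663 and 569 in high CHIR. The mean log2 ratio was 1.96 in CTRL and 1.16 in β-catenin KO, and in the latter the high CHIR value of date 1 was about equal to the low CHIR values of dates 2 and 3. Low CHIR gave 119.6 and 211 in α-catenin KO and 199.5 and 271 in QCKO, high CHIR 531 and 776 in α-catenin KO and 1003 and 897 in QCKO (log2 fold change 2.01 ± 0.21, SE, adjusted p = 3.27e-04, limma). Daam1 (chr12:71830950-71992376), a formin that binds Dishevelled in non-canonical Wnt signalling, stood at 107, 109 and 117 in CTRL low CHIR and 298, 197 and 258 in CTRL high CHIR. In β-catenin KO the values of 70.9, 191 and 112 in low and 126, 295 and 219 in high CHIR overlapped between dates. Daam1 rose by a log2 fold change of 1.49 ± 0.17 (SE, adjusted p = 5.21e-04, limma) in the adhesion knockouts. Daam2 moved the other way, with log2 fold changes of -1.98 in CTRL, -0.13 in β-catenin KO and -1.57 in the adhesion knockouts. Pip4k2a, a phosphoinositide kinase, was higher in high CHIR in all 10 pairs but was not called in the adhesion knockouts (log2 fold change 0.52, 95% confidence interval -0.11 to 1.15, adjusted p = 0.234, limma).

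Membrane proteins included the gene with the largest response. Amigo1 (chr3:108186289-108192286), a leucine-rich repeat and immunoglobulin cell adhesion protein, had counts of 188, 154 and 194 in CTRL low CHIR and 30.6, 16.0 and 42.3 in CTRL high CHIR. In β-catenin KO they were 138, 115 and 118 in low and 27.7, 34.4 and 66.8 in high CHIR, a narrower gap with no overlap. High CHIR values of 29.6 and 19.2 in α-catenin KO and 30.2 and 32.7 in QCKO compared with low CHIR values of 197 and 154 in α-catenin KO and 193 and 219.8 in QCKO, a 6.84-fold fall (log2 fold change -2.75 ± 0.23, SE, adjusted p = 8.74e-05, limma). Tril (chr6:53815468-53820825), a leucine-rich repeat accessory protein of Toll-like receptors, fell by 1.53 on the log2 scale (adjusted p = 0.0105, limma). Stxbp6 (chr12:44852484-45075118), a SNARE-binding protein, fell by 1.33 (adjusted p = 4.53e-04, limma). Frrs1 (chr3:116859567-116907714), a ferric-chelate reductase, rose from a mean of 252 ± 85 to 666 ± 158 (SD, n = 4), a log2 fold change of 1.43 (adjusted p = 0.00544, limma).

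Uhrf2 (chr19:30030430-30093726), a ubiquitin ligase that reads modified DNA, had 1520, 1604 and 1442 in CTRL low CHIR and 859.6, 736 and 931 in CTRL high CHIR. The β-catenin KO libraries had 739, 1080 and 1252 in low and 482, 598 and 773 in high CHIR. At date 1 the β-catenin KO low CHIR library was already below the CTRL high CHIR level of the same date, and a further fall occurred. Uhrf2 fell from 2079 and 1580 to 777 and 683 in α-catenin KO and from 1520 and 1672 to 697 and 656 in QCKO (log2 fold change -1.28 ± 0.12, SE, adjusted p = 1.48e-04, limma). Fahd1 (chr17:24848896-24850302), a mitochondrial oxaloacetate decarboxylase, went from a mean of 1088 ± 69 to 436 ± 44 (SD, n = 4), the smallest standard error of the 31 genes at 0.11 (log2 fold change -1.32, adjusted p = 8.89e-05, limma). Its RefSeq span overlaps Hagh. Of the 21 genes with a symbol, 11 overlap another RefSeq gene, among them Tle2 (with Tle6) and Meg3 (with Rtl1). The part of such overlaps in the counts was not tested. Ypel3, of the Yippee-like family, fell by 0.80 (adjusted p = 0.0429, limma), a call lost without 7 of the 8 libraries in turn (adjusted p up to 0.163).

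The 4 genes with a symbol that were not called in the adhesion knockouts were Pip4k2a, Rbm47, Lyrm9 and A930007A09Rik. Rbm47, an RNA-binding protein, had a log2 fold change of -0.77 (95% confidence interval -1.42 to -0.12, adjusted p = 0.0949, limma). Lyrm9, a small LYR-motif protein, had 0.78 (0.17 to 1.39, adjusted p = 0.0769) and A930007A09Rik -0.76 (-1.31 to -0.21, adjusted p = 0.0583). These 3 were called with the culture date as a block. Of the genes without a symbol, ENSMUSG00000046997 rose (log2 fold change 1.38, adjusted p = 0.0201, limma) and ENSMUSG00000055782 fell (-1.66, adjusted p = 0.0182). The third, with a log2 fold change of -0.72, was called at an adjusted p of 0.0483. The log2 fold changes of the other 7 ran from -1.06 (ENSMUSG00000033192) to 1.24 (ENSMUSG00000037031). The genes at these ends were also called with the culture date as a block. With it 25 of the 31 genes were called, against 21.7% of all genes. The 3 calls among genes without a symbol were each lost without at least 1 library.

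The ratio limits passed close to some genes. Lyrm9 was the nearest inside the upper limit, with a lowest of 6 ratios of 1.41, and Abcc3, a multidrug transporter, the nearest outside with 1.399. Fahd1 was the nearest inside the lower limit, with a highest ratio of 0.701, and Tafa2, a secreted chemokine-like protein, the nearest outside with 0.721. A member had a median of 186.5 recovered reads in a library and 12 at the least, so that a single ratio of the rarest genes carries a wide counting error.

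Pathway lists gave the surroundings of these genes. Of their different genes, 153 could be matched by symbol and were tested over all 20 libraries. A symbol again means that the authors list the gene for a difference. In the adhesion knockouts 6 of 8 Wnt/β-catenin feedback targets rose and 2 fell, with Notum (log2 fold change 6.58), Sp5 (4.23) and Lef1 (4.19) the largest (limma, as above). Their log2 fold changes in β-catenin KO were 0.60, 0.47 and 0.52. All 10 NPC self-renewal genes fell, led by Meox2 (-6.58), Six2 (-5.00) and Osr1 (-4.54), and all 8 induction genes rose, led by Wnt4 (5.95), Lhx1 (4.82) and Emx2 (4.51). In β-catenin KO these 6 genes had log2 fold changes of -0.95, -0.87, -0.21, 1.82, 2.56 and 1.01. Median log2 fold changes of the self-renewal and induction lists were -3.55 and 3.86 in the adhesion knockouts and -0.37 and 0.99 in β-catenin KO. Of all 16411 genes in the adhesion knockouts the median was 0.0015.

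The immediate early and CREB target list, which holds Jun, had 9 tested genes in the adhesion knockouts, of which 6 rose and 1 fell. The largest were Rgs2 (-3.87), a regulator of G-protein signalling, Egr3 (2.43) and Klf4 (2.20), both zinc finger factors. In β-catenin KO they had -1.47, -0.85 and 0.93, and Fos, the partner of Jun, had 0.48 there, 0.78 in CTRL and 1.17 in the adhesion knockouts. Among FOXO targets 1 of 10 rose and 6 fell, led by Bcl6 (-1.67), Pdk4 (-1.54) and Txnip (-1.12), with -0.17, 0.59 and -0.28 in β-catenin KO. Among unfolded protein response genes 7 of 8 rose and none fell in the adhesion knockouts, led by Pdia6 (1.04), Hyou1 (0.98) and Pdia4 (0.76), with 0.20, 0.13 and 0.042 in β-catenin KO. All lists together had 110 of 152 genes called in the adhesion knockouts, against 15.7% of all genes, so that the shares of the lists named here stand beside a high share over all listed genes. Over all lists, limma called 94 of the 153 genes in CTRL and 0 in β-catenin KO (28 at an unadjusted p under 0.05), against 10.7% and 0.018% of 16691 genes. With the culture date as a block the β-catenin KO count was 3, against 0.24% of all genes, and by DESeq2 6, against 0.342%. The 31 genes likewise had 0 calls in β-catenin KO in the main fit, and 4 with the block. Only 1 of the listed genes, Jun, was among the 21 genes with a symbol, and the 10 others could not be matched to the lists.

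Promoter sequences were compared because TCF/LEF factors are the DNA-binding partners of β-catenin. RefSeq windows of 300 bases (GRCm38.p6) matched 18 of the 21 genes with a symbol, and letters were searched on both strands. The core of TCF/LEF sites (CTTTG followed by AA, AT, TA or TT) occurred in 1 of the 18 genes, Tec, against 18.9% of 27025 genes and 13.0% of 361 CTRL responders without a β-catenin KO response. The cAMP response element TGACGTCA occurred in Meg3 alone, against 2.03% of all genes, and the AP-1 letters TGACTCA or TGAGTCA in none, against 5.95%. The E-box CACGTG occurred in Amigo1 (8.09% of all genes), the antioxidant element TGACNNNGC in Daam1 and Rbm47 (14.0%), the FOXO letters GTAAACA in Uhrf2 and Ypel3 (4.05%), the TEAD letters GGAATG in Rbm47 (16.6%) and the ATF4 letters TGATGCAA in none (1.03%). The antioxidant and AP-1 letters share their first bases. No motif was found in more than 2 of the 18 genes. The 250 bases upstream of the start are given for 4 genes that carry a match, to show where it lies, with the match in capitals and on the strand of the gene. The windows of Tec and Daam1 belong to RefSeq starts that lie 206 and 58593 bases inside the spans given above, so their matches lie within those spans.
Tec, chr5:72868449-72868698, minus strand, TCF/LEF: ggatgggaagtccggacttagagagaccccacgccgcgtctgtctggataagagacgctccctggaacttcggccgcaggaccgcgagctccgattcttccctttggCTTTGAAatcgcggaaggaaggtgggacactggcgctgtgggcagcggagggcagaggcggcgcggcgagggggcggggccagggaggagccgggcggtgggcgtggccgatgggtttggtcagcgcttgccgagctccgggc
Meg3, chr12:109540746-109540995, plus strand, cAMP response element: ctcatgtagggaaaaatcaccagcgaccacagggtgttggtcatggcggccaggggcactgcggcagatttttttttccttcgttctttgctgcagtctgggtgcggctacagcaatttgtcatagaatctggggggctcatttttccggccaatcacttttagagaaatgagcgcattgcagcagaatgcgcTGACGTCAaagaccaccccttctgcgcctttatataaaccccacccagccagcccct
Amigo1, chr3:108186039-108186288, plus strand, E-box: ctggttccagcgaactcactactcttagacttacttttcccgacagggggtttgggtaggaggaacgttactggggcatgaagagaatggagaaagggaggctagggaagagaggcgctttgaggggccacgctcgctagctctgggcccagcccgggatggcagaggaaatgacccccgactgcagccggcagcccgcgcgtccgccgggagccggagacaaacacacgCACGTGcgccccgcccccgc
Daam1, chr12:71889293-71889542, plus strand, antioxidant element: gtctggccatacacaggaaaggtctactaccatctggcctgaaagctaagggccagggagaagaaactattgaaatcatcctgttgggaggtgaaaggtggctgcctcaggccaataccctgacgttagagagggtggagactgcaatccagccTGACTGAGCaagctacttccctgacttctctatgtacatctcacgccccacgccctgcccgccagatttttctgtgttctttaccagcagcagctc
The match in Tec lies 143 bases before the RefSeq start to which its window belongs and 63 bases after the first base of the Tec span, and that in Meg3 lies 57 bases before the first base of the Meg3 span. Tec and Meg3 moved in opposite directions in every pair. In bulk RNA, a change within cells and a change in the share of cells in each state cannot be told apart.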

How the data were processed

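The authors sequenced mRNA of sorted NPCs and deposited a table of 31130 genes whose signal values are read counts scaled by a size factor for each library. Their processing notes name bcl2fastq, STAR, Subread featureCounts, Salmon and DESeq2 and the builds GRCm38, GRCh38 and mm10. Their comparison tables, which hold fold changes and p-values of genes past their thresholds, were used for symbols and Entrez numbers only (4316 genes). Every deposited value was a whole multiple of the step of its library (tolerance 0.01), which gave whole reads. In 2 libraries (β-catenin KO low CHIR of date 2 and α-catenin KO high CHIR of date 3) the step is so near 1 that this check is less telling.

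Groups, doses and culture dates came from the sample labels. The 31 genes and all lists were chosen with earlier results of these data known. Tests used limma 3.58.1 (R 4.3.3, with a trended prior variance, a mean for each group and Benjamini-Hochberg adjusted p-values) on log2(normalized count + 1) of genes with a mean of at least 10, in the 8 α-catenin KO and QCKO libraries, and in all 20 libraries for the log2 fold changes of CTRL and β-catenin KO. A call needed an adjusted p under 0.05 together with a log2 fold change beyond 0.5 either way. Mean log2 ratios are means over the pairs of a date with no addition to the counts, and pairs with a ratio of 0 were left out for the comparison genes. By the rule for named genes, these were all of the 31 with a symbol, those nearest to the ratio limits, Lef1, Axin2, Wnt4, Six2, the targeted genes and the 3 called genes of each reported pathway list with the largest change. Relatives (Rian, Peg3, Meis2, Meis3, Pbx3, Hoxa3, Daam2, Tle3 and Fos) and Tek lie outside it and were named after their values were seen.

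Culture dates pair the libraries by their labels. The correlation across genes of the low and high CHIR deviations from their group means ran from 0.0474 to 0.721. On simulated data of the adhesion knockout comparison, 132 of 200 genes changed by 1 on the log2 scale were found by limma with 4 false calls, and 194 of 200 changed by 2 with 15 false calls. Alternatives were other ratio, mean and fold limits, pseudocounts of 0.25 and 5, quantile and TMM scaling, edgeR 4.0.16, DESeq2 1.42.0, the date as a block, all 20 libraries and leaving out each library or date. Entrez numbers, and for Gm20485 the symbol, were matched to RefSeq positions on GRCm38.p6 for all 21 genes with a symbol. Reads carried no molecular identifiers, so read numbers cover counting error only.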

Additional observations from a re-analysis of the deposited data

How the results depend on the processing

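The number of genes that met the conditions depended on the limits. It was 31, and became 65 at a ratio limit of 1.3, 19 at 1.5, 61 at a mean of at least 10, 13 at group means within 1.25-fold, 80 within 2-fold and 51 after quantile normalization (26 of the 31 remained). TMM scaling gave 34, of which 29 were among the 31. Leaving out a culture date gave 73 to 112 genes, with fewer ratio limits to pass by construction. Of the 31 genes 23 or 24 remained. The rest were lost because their group means over the dates left were no longer within 1.5-fold. With β-catenin KO date 1 alone it was 105 and with dates 2 and 3 alone 76, both chosen after seeing the data. Both set the dates kept against the CTRL mean of all 3 dates.

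In the adhesion knockouts 15 to 25 of the 31 genes were called over 18 other settings (48.4% to 80.6% of those tested, against 8.6% to 21.7% of all genes), and none changed sign. At a mean of at least 100 only 22 of the 31 were tested. Of the 20 called genes 14 kept their call in each of these settings that tested them, and the 6 others were Jun, Tle2, Ypel3 and 3 genes without a symbol. The count over all genes was 2584 and became 1504 at a log2 fold change over 1. With the culture date as a replicate block, the calls in α-catenin KO rose from 11 to 20 and in QCKO from 13 to 23, and the genes called among the lists in β-catenin KO from 0 to 3 (6 by DESeq2). The block added calls and removed none that the text names. Leaving out a library gave 5 to 15 calls in QCKO, 10 to 12 in α-catenin KO, 15 to 21 in both together and 19 to 23 genes past the ratio limits in the pairs left. In these fits the share of all genes called moved as well. In QCKO it fell without a QCKO library and rose without an α-catenin KO library. In α-catenin KO and in both together it fell each time. The counts alone therefore show no shift particular to the 31 genes. For the ratio limits no share of all genes is given here. Each of these fits leaves 1 library in a group. The cause of these shifts was not tested. With 12 reads at the least in a library, ratios of the rarest of the 31 genes are limited by depth.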
